A study of Mus musculus with 2 samples.

Results

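The 10 genes described here are C-type lectin receptors of myeloid cells, Clec7a, Clec4d, Clec4e, Clec4n, Clec5a, Clec12a, Clec4a2, Clec4a3, Cd209a and Clec2d. They were chosen by gene symbol in the platform's probe annotation, and 17 of the 34885 probes with a single gene belong to them, so they are 10 of 19057 genes on the array. The chosen genes were compared between macrophages and osteoclasts, multinucleated cells that resorb bone and arise from a shared marrow precursor. Both samples were grown from whole marrow of tibia and femur of C57BL/6J mice aged 8 to 12 weeks, with no genetic change named, and each stood for 3 mice. The macrophage sample received M-CSF at 25 ng/ml, with 4 days of culture in M-CSF alone. The osteoclast sample then had 3 further days with M-CSF at 25 ng/ml and soluble RANKL, the cytokine that drives osteoclast formation, at 30 ng/ml. The labels do not say at which day the macrophages were collected. Each sample was hybridised to 1 Illumina bead array, so there is no replicate, no test and no p-value, and every difference is between these 2 arrays. The arrays lay on different chips, and chip, day of handling and cell type cannot be told apart.

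C-type lectin receptors are membrane proteins whose extracellular domain recognises sugars, lipids or protein ligands on microbes and damaged cells. Activating members signal through the kinase Syk and the adaptor protein Card9. Dectin-1, the product of Clec7a, does so with a tyrosine motif of its own, while Dectin-2 (Clec4n), Mincle (Clec4e) and MCL (Clec4d) use the Fc receptor gamma chain (Fcer1g), and Clec5a uses DAP12 (Tyrobp). Inhibitory members such as Clec12a and DCIR (Clec4a2) recruit phosphatases. The same gamma chain and DAP12 provide the costimulation that osteoclast precursors need beside RANKL, and Clec2d encodes the osteoclast inhibitory lectin, which restrains osteoclast formation in culture.

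Of the 9 receptors measured above background, 4 were at least 2-fold lower in the osteoclast sample, 0 were at least 2-fold higher and 5 lay within 2-fold. The lower genes were Clec4n (16.4-fold), Clec4e (8.36-fold), Clec4a3 (4.19-fold) and Clec7a (2.93-fold). Clec4d, Clec2d, Clec5a and Clec12a lay within 2-fold. Clec4a2 did so as measured, but it was above background in osteoclasts only, which bounds it at no less than 1.21-fold higher. Among all 13008 genes above background, 8.20% were at least 2-fold lower and 11.5% at least 2-fold higher. The median difference of the 9 receptors was -0.71 on the log2 scale, beside -0.05 over all genes above background. Differences are osteoclast minus macrophage on the scale of log2(background-corrected intensity + 16) after quantile normalization, a scale that understates the change of dim genes. A probe counts as above background where its intensity exceeds what the array's estimated background passes with a one-sided p of 0.01. The tenth receptor, Cd209a, was not above background on either array. Fewer cells of a type and less RNA per cell cannot be told apart in such bulk samples.

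**Figure D1:**
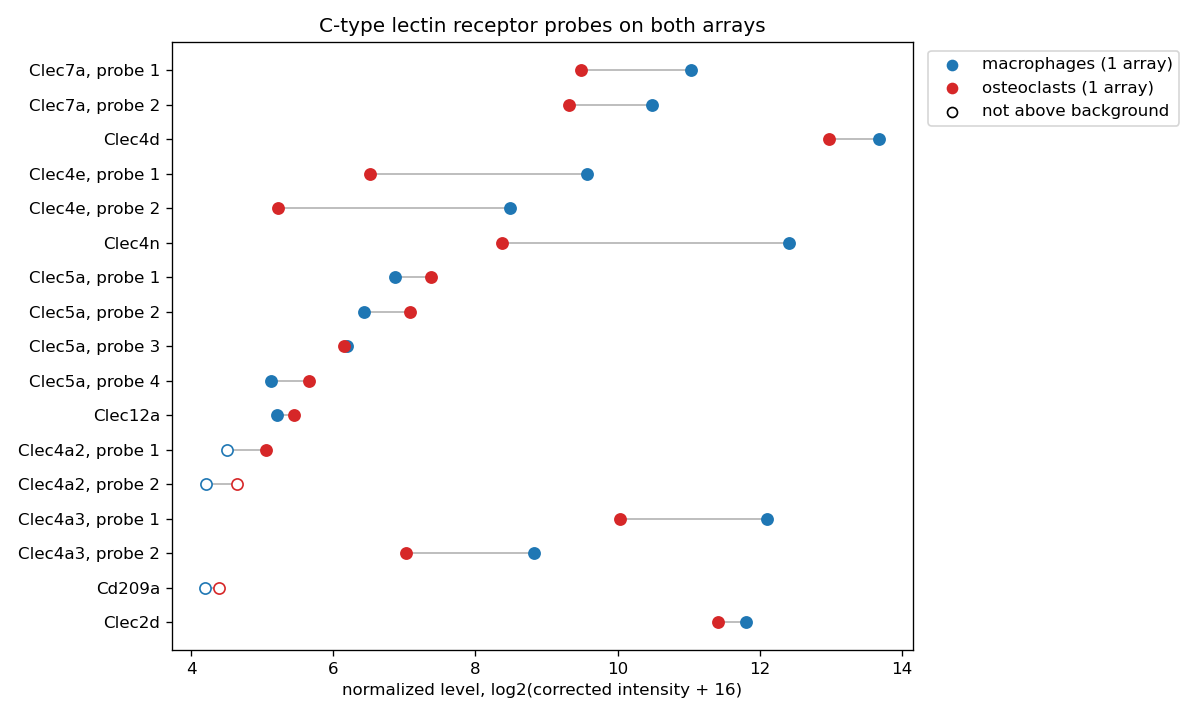
Normalized level of each of the 17 receptor probes, as log2(corrected intensity + 16), on the macrophage and the osteoclast array (1 array each), with open circles for values not above background. Each line joins the same probe on both arrays and only the 2 points of a line can be set against each other; the widest gap is that of Clec4n, from 12.42 in macrophages to 8.38 in osteoclasts.

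The activating receptors that pair with the Fc receptor gamma chain differed widely among themselves. Clec4n, which encodes Dectin-2, a receptor for fungal mannans, read an intensity of 4333 in macrophages and 433 in osteoclasts at its only probe. The normalized difference was -4.04, and a lower difference was seen in 0.215% of the genes above background. Clec4e encodes Mincle, which binds the mycobacterial glycolipid cord factor. Its first probe read 552 in macrophages and 101 in osteoclasts, a difference of -3.06. Its second probe read 244 and 22.6, a difference of -3.27, so both probes gave the osteoclast sample as lower by similar amounts.

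Clec4d encodes MCL, which associates with Mincle and binds the same glycolipid. Its single probe was bright on both arrays, at 10584 in macrophages and 10119 in osteoclasts, a normalized difference of -0.71 (1.63-fold lower). The array-wide scale matters for this gene, since without normalization its difference was -0.06. The gap between Clec4d and its partners depended less on scale, since a constant shift of a whole array cancels in it. Relative to Clec4d, Clec4e was lower by 5.13-fold, and by 3.87-fold to 6.50-fold under the other settings applied to the same probes. Clec4n was lower relative to Clec4d by 10.1-fold, with 9.16-fold to 10.7-fold under those settings. The 3 genes were thus unequally changed.

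The 3 genes are neighbours on mouse chromosome 6, in the order Clec4n, Clec4d, Clec4e, with no other protein-coding gene between them in the RefSeq annotation of GRCm38.p6. The promoters of Clec4d and Clec4e are shown because the pair lies side by side and differed in size of change, and that of Clec5a because it belongs to an activating receptor that was not lower. Each sequence runs 5′ to 3′ on the gene's own strand, from 250 bases before the annotated start to 50 bases from it on, in RefSeq's GRCm38.p6. Capitals mark the core GAGGAA bound by the myeloid factor PU.1 and the C/EBP motif TTGCNNAA, searched on both strands; no marked match overlaps another.
Clec4d (chr6:123261857-123262156, plus strand): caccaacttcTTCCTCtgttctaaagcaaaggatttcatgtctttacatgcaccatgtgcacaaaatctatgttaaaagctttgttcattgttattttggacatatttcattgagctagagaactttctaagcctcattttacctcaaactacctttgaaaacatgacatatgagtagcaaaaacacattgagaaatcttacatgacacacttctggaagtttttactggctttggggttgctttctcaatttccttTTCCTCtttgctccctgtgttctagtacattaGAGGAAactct
Clec4e (chr6:123289822-123290121, minus strand): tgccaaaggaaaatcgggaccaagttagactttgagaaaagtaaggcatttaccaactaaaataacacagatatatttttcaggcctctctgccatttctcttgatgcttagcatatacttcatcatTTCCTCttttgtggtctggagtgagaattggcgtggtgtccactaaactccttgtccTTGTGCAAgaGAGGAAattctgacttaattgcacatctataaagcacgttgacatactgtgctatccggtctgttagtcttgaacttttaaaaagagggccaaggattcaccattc
Clec5a (chr6:40585756-40586055, minus strand): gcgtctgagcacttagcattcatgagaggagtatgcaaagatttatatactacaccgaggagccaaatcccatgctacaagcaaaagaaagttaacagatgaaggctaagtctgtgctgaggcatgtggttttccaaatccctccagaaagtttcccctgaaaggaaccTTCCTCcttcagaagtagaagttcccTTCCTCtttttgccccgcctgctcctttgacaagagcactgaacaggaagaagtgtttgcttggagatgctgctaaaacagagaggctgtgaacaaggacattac

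In these windows Clec4d held 3 matches to the PU.1 core, Clec4e held 2 and Clec5a held 2, and Clec4e also held 1 match to the C/EBP motif. The PU.1 core was found in 7 of 11 annotated promoters of 9 of the receptors, and in 28.3% of all 32851 mouse promoters of the same length. The C/EBP motif was found in 2 of the 11, those of Clec12a and Clec4e, and in 10.8% of all. Other motifs searched on both strands were an ETS-IRF composite GGAANNGAA (4 of the 11, 8.24% of all), an IRF element GAAANNGAA (2 of the 11, 8.56%) and the AP-1 site TGANTCA (2 of the 11, 7.81%). Clec7a and Clec4a3 have a pair of overlapping windows each, so their matches can be counted more than once. The IRF match in the Clec4d promoter and the composite match in that of Clec5a each overlapped a PU.1 core match. Matches are a description of the letters in these windows. Spi1, which encodes PU.1, differed by 0.34, and Irf8, which encodes a PU.1 partner in myeloid cells, differed by -3.34.

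Dectin-1, the receptor for fungal beta-glucans, was lower in the osteoclast sample at both probes of Clec7a. The first probe read 1583 in macrophages and 931 in osteoclasts, a difference of -1.55, and the second read 1072 and 835, a difference of -1.16. The intensities at the second probe are close, and the osteoclast array was brighter as a whole. Among probes above background on both arrays the median of the corrected intensity plus 16 was 1.76 times higher in osteoclasts, so the normalized difference is larger than the ratio of the intensities shows. Without normalization the first probe differed by -0.75, within 2-fold, where all genes had a median of 0.60.

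Clec5a, the DAP12-linked receptor for flaviviruses that is known from inflammatory joint disease, was not lower. At its brightest probe the intensity was 66.9 in macrophages and 201 in osteoclasts, a normalized difference of 0.49. Further probes differed by 0.64 and 0.52. The remaining probe, the only one annotated to a separate RefSeq transcript of the gene, read 36.2 and 71.2 and differed by -0.04. Without normalization the brightest probe differed by 1.36, and those at 0.64 and 0.52 differed by 1.51 and 1.04, all past 2-fold. The remaining probe then differed by 0.73. On the normalized scale the 4 probes lay between -0.04 and 0.64, all within 2-fold.

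Receptors of the DCIR family, several of which carry inhibitory tyrosine motifs, were split. Clec4a3 was lower in the osteoclast sample at both probes, with intensities of 3445 and 1356 at the first (a difference of -2.07) and 318 and 156 at the second (-1.80). Clec4a2, which encodes the inhibitory receptor DCIR, was close to background. Its brighter probe read 0.921 in macrophages, not above background, and 17.3 in osteoclasts. That is at least 1.21-fold higher after quantile normalization, but its measured difference was 0.54 there, 0.04 under median scaling and 3.65 without background correction, so its size is not settled. Its other probe, at -6.67 and 5.77, was not above background on either array. Clec12a, an inhibitory receptor that senses uric acid crystals, was dim on both arrays, at 12.1 in macrophages and 30.7 in osteoclasts. It differed by 0.23, and by -0.10 under median scaling, so its direction depends on the scale.

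Clec2d, the osteoclast inhibitory lectin, was bright on both arrays, with an intensity of 2805 in macrophages and 3500 in osteoclasts. The normalized difference was -0.40 (1.32-fold lower), and without normalization it was 0.32, so the direction turned with the scale while all values stayed within 2-fold. Of 5 genes of the NKR-P1 family, lectin-like proteins of natural killer cells that include its receptor, 4 had a probe. Klrb1b read 0.79 in macrophages, not above background, and 14.3 in osteoclasts, and its difference of 0.45 turned to -0.07 under median scaling, so no direction is given. Klrb1c differed by -0.04, and the other two were not above background.

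Cd209a, a relative of the human receptor DC-SIGN that is known from monocyte-derived dendritic cells, read -7.10 in macrophages and -1.33 in osteoclasts at its only probe. Neither value was above background, so no fold is given. Of 9 dendritic cell markers 8 were above background on at least 1 array, and the list's summed corrected intensity was 304 in macrophages and 158 in osteoclasts. Batf3, a transcription factor of dendritic cells, held most of the macrophage sum. It read 180 in macrophages and was at least 10.5-fold lower in osteoclasts, and without it the sums were 121 and 147. These sums, like those of the lists below, were taken before normalization and include genes not above background. The osteoclast array was brighter as a whole (1.76 times among probes above background on both arrays), so equal sums are not equal levels. After normalization the median of the 8 dendritic cell markers was -0.44. Kit and Siglech, past 2-fold as measured (-1.30 and -1.05), were at least 1.81-fold and 1.65-fold lower at their bounds.

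**Figure D2:**
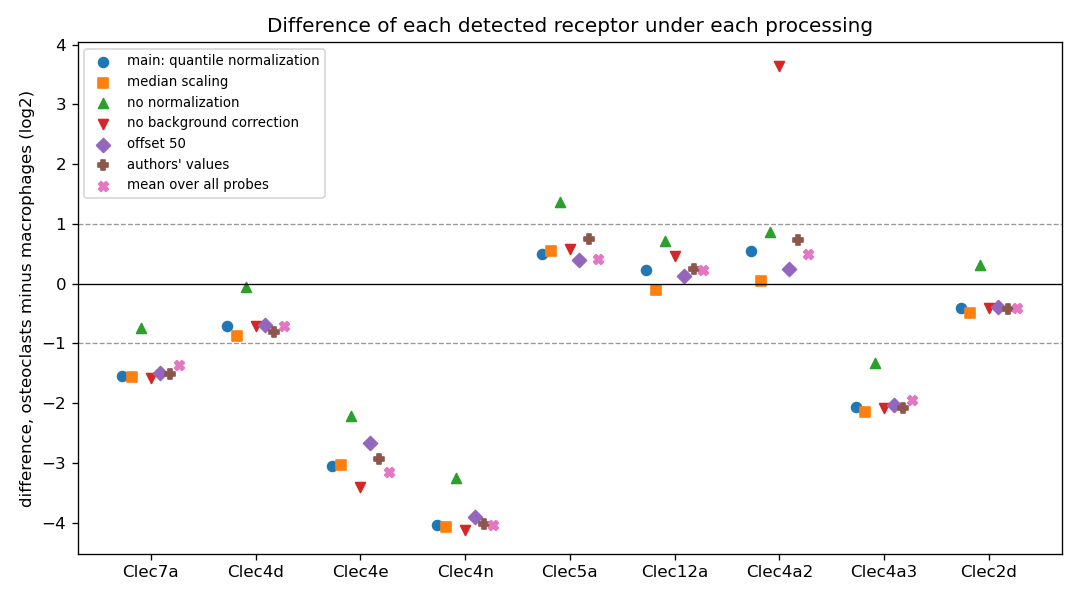
Difference between osteoclasts and macrophages (log2) of the 9 receptors above background, under quantile normalization and 6 other processings, with dashed lines at 2-fold. Clec4n, Clec4e and Clec4a3 lie below the lower line under every processing shown, Clec7a under all but no normalization, and Clec2d and Clec12a have values on both sides of 0.

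The row of genes on chromosome 6 that holds Clec4n, Clec4d and Clec4e begins with Clec4a1 and has 9 protein-coding genes, of which 5 are among the 10 receptors. The lowest differences in it were those of Clec4n (-4.04), Clec4e (-3.06), Clec4a1 (-2.98) and Clec4a3 (-2.07). Clec4a4 (-0.23) and Clec4b1 (-0.86) lay within 2-fold at their brightest probe, and these genes of the row were named after their values were seen. Clec4b1 is uncertain, since its other probes differed by -1.84 and -2.84. Clec4b2 had no probe in the annotation used here. Genes of the row are close relatives, and probe sequences were not used here, so cross-hybridisation between them was not tested.

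**Figure D3:**
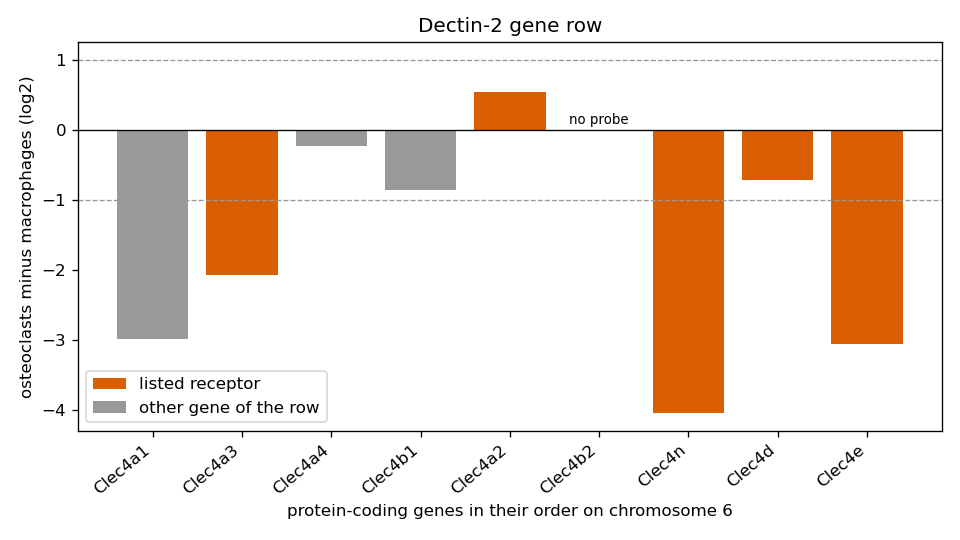
Difference between osteoclasts and macrophages (log2, 1 array each) of the 9 protein-coding genes from Clec4a1 to Clec4e in their order on chromosome 6, with receptors of the list in orange and dashed lines at 2-fold. Low bars (Clec4n at -4.04, Clec4e at -3.06) stand beside the shorter bar of Clec4d at -0.71, and the bar of Clec4a2 rests on a probe above background in osteoclasts only.

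Other C-type lectin receptors also differed in both directions. Of 31 on the array, 24 were above background. In the osteoclast sample 8 of them reached 2-fold lower (7 with genes above background on a single array at their bounds), 3 reached 2-fold higher, and the other 13 differed by less. The lower count was 5 in the authors' values, without normalization and with an offset of 50, and it was 10 under median scaling and 11 without background correction. The higher count was 8 without background correction, and 4 in the authors' values and without normalization. Without background correction 19.7% of all genes were at least 2-fold lower and 21.6% at least 2-fold higher. The median of these 24 receptors was -0.53, and 0.05 without normalization. Lower were the galactose-type lectins Mgl2 (-3.24, and -2.93 at its other probe) and Clec10a (-3.21), Clec4a1 (-2.98), Mrc1, the mannose receptor (-2.62), and Cd69, an activation antigen (-2.05, but -0.05 at its other probe). Intensities of Mrc1 were 5300 in macrophages and 1396 in osteoclasts. The 3 higher genes were Cd207, which encodes langerin of Langerhans cells, at least 13.4-fold higher (0.343 and 478), Cd209f, a gene of the DC-SIGN family (3.30), and Cd72, a lectin-like inhibitory receptor of B cells (1.48). Langerhans cells live in the epidermis, and of 6 epidermal genes, a list added once values were known, 5 were above background and all 5 were higher in the osteoclast sample. Their summed corrected intensity was 124 in macrophages and 17921 in osteoclasts, with Epcam not above background on either array. The part of epidermal RNA in the Cd207 value was not tested.

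Genes that carry the signal of these receptors lay within 2-fold about as often as all genes. Fcer1g was bright on both arrays, at 31607 in macrophages and 26865 in osteoclasts (-0.71), and Tyrobp read 7375 and 8277 (-0.49). Syk (-0.87), Card9 (-0.14) and Bcl10 (-0.96) lay within 2-fold. Of 17 adaptor and activating genes above background, 14 lay within 2-fold, beside 80.3% of all genes above background, 2 were lower (Vav2 at -1.81 and Hcst at -1.03) and 1 was higher (the kinase gene Fgr at 1.16, not above background in macrophages). The calls of Hcst and Fgr lie at the limit, with Hcst at -0.99 in the authors' values and -0.18 without normalization, and Fgr at 0.81 under median scaling and 0.61 with an offset of 50. Vav2 was -0.98 without normalization. Their median was -0.54, and 0.17 without normalization. Of the 7 inhibitory phosphatases, ubiquitin ligases and other brakes, 6 lay within 2-fold, among them Ptpn6 (SHP-1, 0.00) and Inpp5d (SHIP-1, -0.65), and 1 was lower, Rubcn (-1.23, or -0.33 without normalization), which encodes a protein that binds Card9.

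Cytokines and transcription factors that these receptors can induce went both ways. Of 12 above background, 5 reached 2-fold lower, 3 reached 2-fold higher and 4 differed by less. The lower genes were Il1b (-3.47), Il10 (-2.58), Ccl3 (-2.35), Cxcl1 (-1.79) and Cxcl2, not above background in osteoclasts and at least 4.55-fold lower. The higher genes were Il1rn (1.85), Egr3 (1.20, with -0.32 at its other probe) and Egr2 (1.10). With an offset of 50, 1 gene was higher in place of 3.

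**Figure D4:**
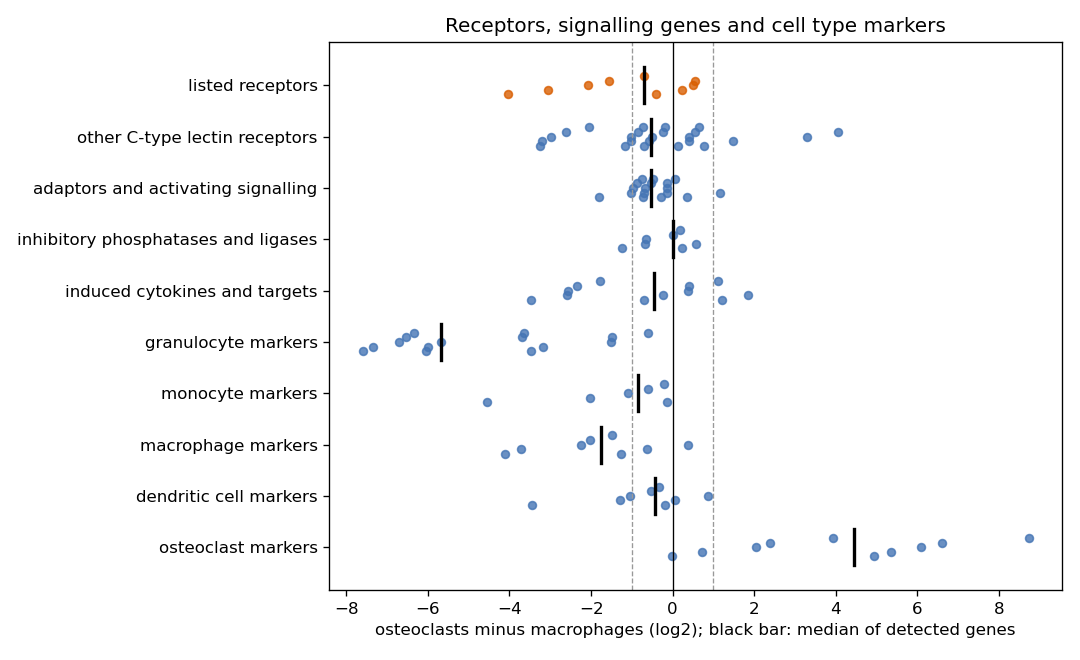
Difference between osteoclasts and macrophages (log2, 1 array each) of each gene above background, by gene list, with a black bar at the list's median and dashed lines at 2-fold. The listed receptors spread from -4.04 to 0.54 with a median of -0.71, while the granulocyte markers have a median of -5.68 and the osteoclast markers one of 4.44.

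Granulocyte markers, and part of the macrophage and monocyte markers, were also lower in the osteoclast sample. Clec4e, Clec4d, Clec7a, Clec5a and Clec12a are known in neutrophils as well as in macrophages. Of 15 granulocyte markers, 14 were at least 2-fold lower in the osteoclast sample, and their summed corrected intensity was 49979 in macrophages and 1085 in osteoclasts. The largest differences as measured were those of Ngp (-7.60), Ltf (-7.34), S100a9 (-6.72), Lcn2 (-6.53), Camp (-6.34) and Retnlg (-6.04). At its bound Retnlg was at least 48.7-fold lower. Not above background in the osteoclast sample were Retnlg, Mpo, Ctsg, Cxcr2 and Mmp8. Of 8 macrophage markers 6 were lower, with a median of -1.76 and sums of 25199 and 13528. They were Fcgr1 (-4.10), Marco (-3.73), Mertk (-2.24), Cd14 (-2.03), Csf1r, the M-CSF receptor gene (-1.48), and Adgre1, which encodes F4/80 (-1.27). Adgre1 (9108 and 5883) and Csf1r (7217 and 4123) were well above background on both arrays. Without normalization they differed by -0.63 and -0.80. Itgam (-0.63) and Msr1 (0.37) lay within 2-fold. Of 6 monocyte markers 3 were lower, F13a1 (-4.55), Cx3cr1 (-2.02) and Plac8 (-1.09, or -0.20 without normalization). The lower count was 2 in the authors' values, without normalization and with an offset of 50. It was 4 under median scaling and 5 without background correction. The sums of the monocyte markers were 3088 and 466. F13a1 held most of the macrophage sum, and without it the sums were 410 and 284. The part of these cells in the receptor differences was not tested. Of 6 B and NK cell markers on the array, Nkg7 was above background, in macrophages only. Of 10 osteoclast markers above background, 8 were higher in the osteoclast sample. Among them were the resorption genes Ctsk (8.73) and Acp5 (4.94), the receptor gene Oscar (6.09) and the protease gene Mmp9 (5.36). The fusion genes Dcstamp (at least 83.6-fold) and Ocstamp (at least 10.7-fold) were higher too. Itgb3 (0.71) and Nfatc1 (-0.02) lay within 2-fold at their brightest probe. Other Nfatc1 probes above background on both arrays differed by -0.72 to 3.15. The proton pump subunit gene Atp6v0d2 was not above background on either array.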

How the data were processed

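The authors deposited a non-normalized table of linear intensities with a background already subtracted (38.4% and 36.9% of values lay below 0), and a processed table of log2 values whose normalization is not given in the sources used here. Across 5844 probes above 200, the difference between the authors' log2 columns rose with the log2 intensity ratio (slope 0.970), which sets their scale and direction. The median of the authors' difference minus that ratio was -0.79, so the columns had been rescaled between arrays, by a method not given. The medians of the columns were 5.00 and 5.05. The planned detection p-values were not in the tables used here, so each array's background was taken from the mode of all intensities, with the spread under that mode as its SD (-3.62 with an SD of 3.65 in macrophages, -5.33 with 5.40 in osteoclasts). This gave detection limits of 4.88 and 7.24, and 21691 and 22993 of 45281 probes above them. Limma 3.58.1 (R 4.3.3) applied normexp, an offset of 16 and quantile normalization; the steps were tested on simulated data. Later steps used Python 3.11.15 and pandas 2.3.3.

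Gene names came from the platform annotation (34885 probes with 1 gene, 18 with several, 10378 not listed), and 34807 matched RefSeq by Entrez identifier. The probe with the highest mean signal stands for a gene. A gene above background on a single array is given as a bound, computed against the lowest detected signal of the dim array or its own dim value, whichever is larger. With 1 array per group, the number of arrays limits the precision and no test was run. The members and lists were chosen with earlier results of these data known. The text names every member with all probes, and of each other list up to 6 genes past 2-fold by size, with preset genes. Cd72, Cd69, Egr2, Egr3 and other genes that complete a small count or a list of undetected markers, and chromosomal neighbours, were named after their values were seen. Promoters came from RefSeq, GRCm38.p6; 9 of the 10 members matched, and Clec4n did not. Alternatives were median scaling over probes above background on both arrays, no normalization, no background correction, an offset of 50, the authors' values, the mean of a gene's probes, and genes above background on both arrays.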

Additional observations from a re-analysis of the deposited data

How the results depend on the processing

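No paired analysis was possible because each group had 1 array, and leaving out a replicate was not possible for the same reason. The count of receptors at least 2-fold lower was 4 under every alternative except no normalization, where it was 3 because Clec7a differed by -0.75. The share of all genes above background that were at least 2-fold lower moved more, from 8.20% in the main processing to 13.5% with median scaling. It was 19.7% without background correction, 5.68% with an offset of 50 and 7.23% in the authors' values. The count of receptors at least 2-fold higher, 0 in the main processing, was 1 without normalization (Clec5a, 1.36). It was also 1 without background correction (Clec4a2, 3.65, where the macrophage value sits at the floor of 1), where 21.6% of all genes were higher. The median difference of the receptors, -0.71, was -1.13 when only genes above background on both arrays were counted, -0.88 with median scaling and -0.06 without normalization. Over all genes the medians under the last pair of scalings were -0.22 and 0.60. These scalings differ only by a constant for each array, so the median of members minus that of all genes was equal by construction (-0.66). It was also -0.66 in the main processing, -0.64 without background correction, -0.67 with an offset of 50 and -0.82 with the authors' values. Among all genes past 2-fold, 58.4% were higher in the main processing, 42.8% with median scaling and 91.1% without normalization; 29.5% of genes were then at least 2-fold higher and 2.88% lower. Across the alternatives Clec4n ranged from -4.13 to -3.26, Clec4e from -3.41 to -2.22 and Clec4a3 from -2.15 to -1.33. Values near background, those of Clec4a2, Clec12a and Cd209a, are limited by the estimated background, for which no control probes were used.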
